A study of Mus musculus with 10 samples.

Results

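The core pluripotency factors examined here are 8 genes, *Pou5f1* (OCT4), *Sox2*, *Nanog*, *Sall4*, *Utf1*, *Lin28a*, *Lin28b* and *Zfp42* (REX1). They were taken as every probe set on the mouse array that the platform annotation assigns to one of these symbols, which gave 12 of 45101 probe sets, and 10 of the 12, for 7 of the 8 genes, were bright enough to be tested. RNA was measured by 1 Affymetrix Mouse Genome 430 2.0 array per sample in 5 sorted populations with 2 arrays each. Oct4-Gfp iPGCs were GFP-positive cells with bright cKit from embryoid bodies (EBs) at day 6, made from a line of mixed genetic background that carries a GFP reporter of *Pou5f1*. V6.5 iPGCs, from the 129xBL6 F1 line V6.5, were sorted on the same day by the surface antigen SSEA1 and bright cKit, without a reporter. Somatic cells of each line were the cells of day 6 EBs that lacked both sort markers (Oct4-Gfp and cKit, or SSEA1 and cKit). The ESCs were V6.5 cells positive for SSEA1 and cKit, sorted at day 0 from cultures on mouse feeder fibroblasts, and no Oct4-Gfp ESC array was analysed here. The EBs were grown without LIF. Each line is 1 ESC line, and nothing states that the 2 arrays of a group came from separate cultures, so p-values measure the spread between arrays, which may be technical.

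OCT4 and SOX2 are transcription factors that bind DNA side by side and, with NANOG, keep each other and many other genes on in ESCs. SALL4 is a zinc finger protein that works with OCT4 and recruits the NuRD repressor complex, UTF1 is a chromatin-bound protein of undifferentiated cells, and REX1 is a zinc finger protein used as a marker of naive ESCs. LIN28A and LIN28B are RNA-binding proteins that block the maturation of let-7 microRNAs. Primordial germ cells (PGCs) of the mouse embryo express most of these genes, whereas somatic lineages lose them at different times.

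Values are signal intensities on a linear scale, with each array scaled to the same trimmed mean, and differences are of log2(signal + 14.8), which understates the change of dim genes. As a level that counts as background, the 95th percentile of olfactory receptor probe sets was taken on each array, between 12.6 and 25.4. The sort labels were checked against marker genes fixed for each cell type. *Kit*, among the PGC markers, encodes the sort marker cKit, so it is not independent of the sort. The 6 naive ESC markers summed to 12477 to 16922 on iPGC arrays, 2274 to 3238 on somatic arrays and 17883 to 19553 on ESC arrays. Most of the somatic sums was *Tbx3*, with means of 2066 in somatic cells, 1069 in iPGCs and 1142 in ESCs. This 1 marker was brightest in somatic cells (limma, adjusted p under 0.05 against each other population). The remaining 5 were dimmest there by the same test. The summed signal of 7 PGC markers was 20264 to 20897 on iPGC arrays, 1487 to 2278 on somatic arrays and 10615 to 11365 on ESC arrays. *Dazl* and *Prdm14* were below background on every somatic array. *Dppa3*, *Kit*, *Prdm1* and *Tfap2c* were above it on every somatic array, and *Dnd1* on both V6.5 arrays and 1 Oct4-Gfp array. The 8 markers of somatic mesoderm and heart summed to 648 to 1146 on iPGC arrays, 21270.3 to 25879 on somatic arrays and 151 to 195 on ESC arrays. *Mef2c* and *Tbx5* were below background on every iPGC and ESC array. *Gata4*, *Pdgfra*, *Foxf1*, *Hand1*, *Isl1* and *Tbx20* were above background on every iPGC array. The 3′ to 5′ ratio of the *Gapdh* control probes, a sign of RNA integrity, was 1.51 to 2.37 on iPGC arrays, 1.65 to 2.05 on somatic arrays and 1.28 to 1.30 on ESC arrays.

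The promoters of *Nanog* and *Zfp42* are shown because the first holds letters that OCT4 and SOX2 are known to read, and the second letters that OCT4 reads. Both genes, like *Pou5f1*, *Sox2* and *Utf1*, lie among those whose signal separated iPGCs from somatic cells most. Promoter windows (250 bases before and 50 after a start site) came from RefSeq annotation of GRCm38.p6, with 9 windows for 7 of the 8 genes. The composite site for SOX2 and OCT4, searched on both strands as CATTGT, any 1 base and ATGCAAA, was found in 2 of 32851 windows (0.00609%), and both belong to *Nanog*, whose 2 annotated starts share it. The octamer ATGCAAAT that OCT4 binds was in 1.74% of windows and in 1 of the 9 windows of the members, that of *Zfp42*. The shorter octamer core ATGCAAA, which overlaps both of these motifs, was in 4.63% of windows and in 3 of 7 member genes, *Sox2*, *Nanog* and *Zfp42*. A match is a description of the sequence and not a measurement of binding. The 250 bases before a start site are given 5′ to 3′ on the strand of the gene, for *Nanog* (plus strand, chr6:122707315-122707564) and *Zfp42* (minus strand, chr8:43307010-43307259), and the capitals mark the composite site and the octamer, both matched on the opposite strand.
Nanog: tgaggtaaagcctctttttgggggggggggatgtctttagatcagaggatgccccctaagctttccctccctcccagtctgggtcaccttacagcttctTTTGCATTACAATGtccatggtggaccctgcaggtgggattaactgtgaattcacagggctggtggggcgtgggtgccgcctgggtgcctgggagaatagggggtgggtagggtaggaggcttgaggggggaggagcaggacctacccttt
Zfp42: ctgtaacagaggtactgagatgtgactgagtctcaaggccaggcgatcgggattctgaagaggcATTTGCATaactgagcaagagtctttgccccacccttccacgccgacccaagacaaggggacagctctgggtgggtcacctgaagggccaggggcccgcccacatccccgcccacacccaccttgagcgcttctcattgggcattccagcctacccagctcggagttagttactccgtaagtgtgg

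Against day 6 somatic cells, 5 of the factors were far brighter in iPGCs. *Pou5f1*, *Sox2*, *Nanog*, *Zfp42* and *Utf1* were 24.1-fold to 46.9-fold higher, and somatic means of their main probe sets lay at 1.08% to 6.30% of the iPGC means of the same line. *Sall4* and *Lin28a* were bright in both populations, with *Sall4* 1.19-fold higher and *Lin28a* 1.21-fold lower in iPGCs. All 7 tested genes thus passed the test (limma, Benjamini-Hochberg adjusted p under 0.05), 6 higher and 1 lower, where 58.4% of the 26368 tested probe sets passed in either direction, 26.9% higher and 31.4% lower. Arrays of both populations did not overlap for 6 of the 7, with 5 higher and 1 lower, and the same held for 23% of all probe sets as higher and 26.3% as lower. A log2 difference above 3, reached by the 5 factors, was reached by 1.37% of all tested probe sets. In sorted populations measured in bulk, fewer cells with a transcript and less transcript per cell cannot be told apart.

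**Figure D1:**
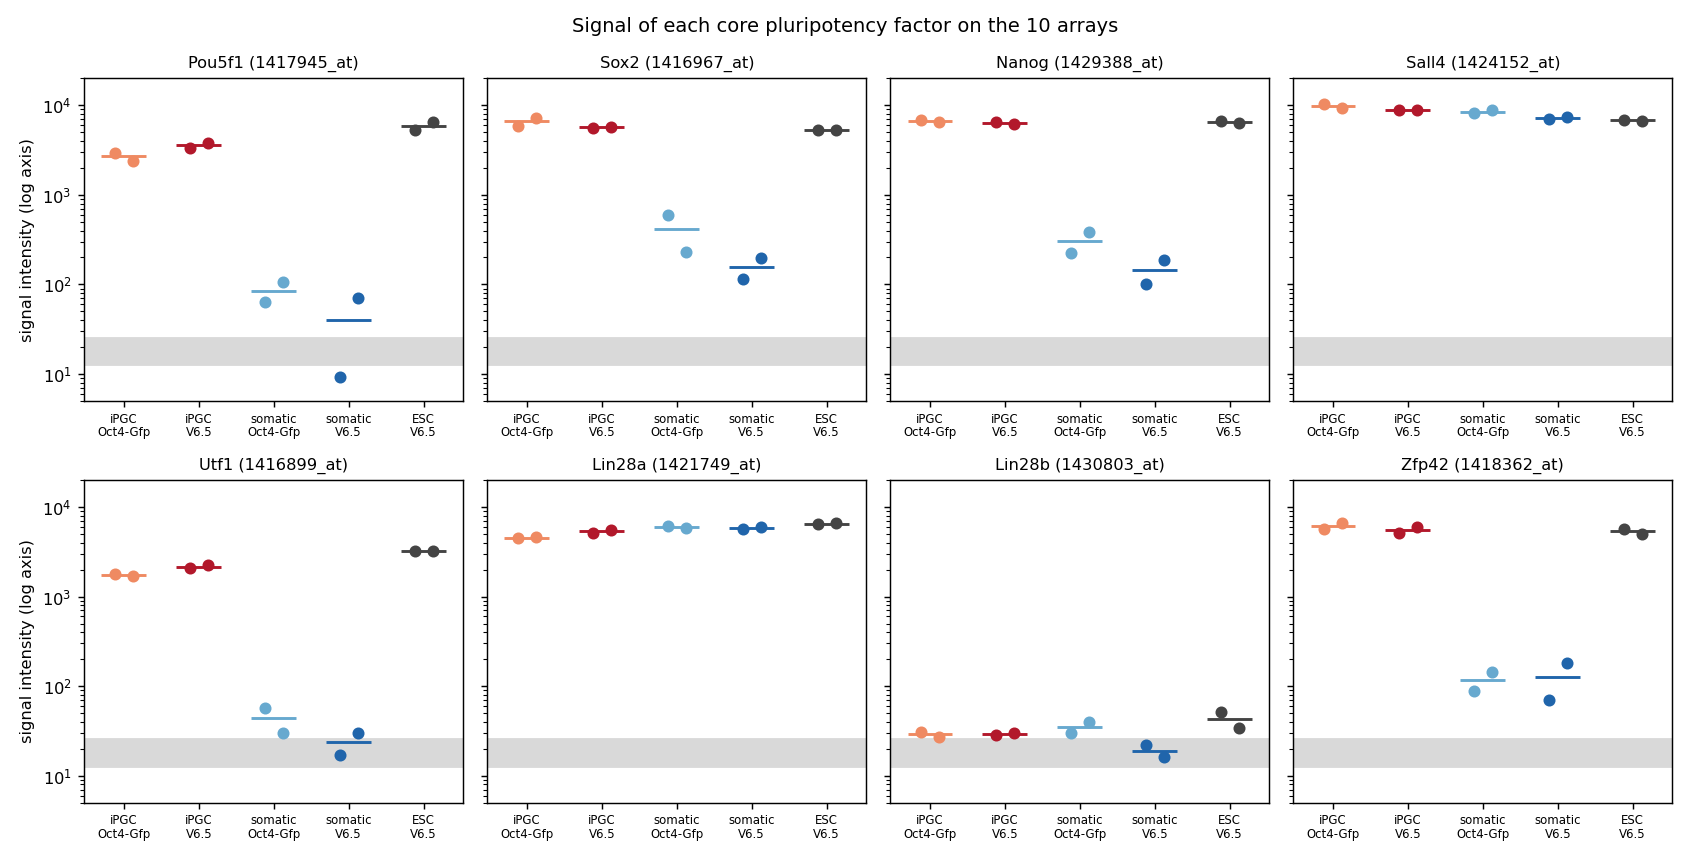
Signal intensity (log axis) of the brightest probe set of each of the 8 core pluripotency factors on the 10 arrays, with points for arrays, bars for the mean of the 2 arrays of a group, and a grey band for the range of the background level over arrays (12.6 to 25.4). *Pou5f1*, *Sox2*, *Nanog*, *Utf1* and *Zfp42* fall away in both somatic groups, *Sall4* and *Lin28a* stay at 4499 or more on every array, and *Lin28b* lies near the background.

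*Pou5f1* (probe set 1417945_at), the gene of OCT4, had signals of 2976 and 2419 in Oct4-Gfp iPGCs and 3367 and 3831 in those of V6.5, 63.9 and 107 in Oct4-Gfp somatic cells and 9.19 and 70.7 in those of V6.5, and 5335 and 6505 in ESCs. The 4 iPGC arrays lay far above the 4 somatic arrays and below both ESC arrays, and V6.5 somatic replicate 1 was the one array on which *Pou5f1* was not above background. The log2 difference of iPGCs over somatic cells was 5.55 ± 0.36 (SE, adjusted p = 6.79e-06). In the Oct4-Gfp line GFP under *Pou5f1* control was a sort marker, so its difference there (4.79 ± 0.51) is not independent of the sort. In the V6.5 line, sorted without a reporter, the difference was 6.32 ± 0.51 (SE, adjusted p = 4.88e-05). The paper states that SSEA1 and the Oct4-Gfp reporter mark the same cells when combined with cKit. The V6.5 difference is therefore not independent of the sort either.

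*Sox2* (1416967_at), the partner of OCT4 on composite sites, had signals of 5928 and 7296 in Oct4-Gfp iPGCs and 5587 and 5768 in those of V6.5, 603 and 229 in Oct4-Gfp somatic cells and 114 and 198 in those of V6.5, and 5243 and 5308 in ESCs. All somatic arrays were above background and far below the iPGC arrays, and Oct4-Gfp somatic replicate 1 was the highest of them. The difference of iPGCs over somatic cells was 4.59 ± 0.29 (SE, adjusted p = 5.37e-06). *Nanog* (1429388_at), a homeobox factor of the naive state and of PGCs, had 6839 and 6564 in Oct4-Gfp iPGCs and 6491 and 6208 in those of V6.5, 226 and 389 in Oct4-Gfp somatic cells and 100.5 and 188 in those of V6.5, and 6724 and 6419 in ESCs. Its 4 iPGC arrays and 2 ESC arrays overlapped, while the somatic arrays were well apart. Its difference over somatic cells was 4.90 ± 0.21 (SE, adjusted p = 1.03e-06).

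*Zfp42* (1418362_at), the gene of REX1, had signals of 5731 and 6629 in Oct4-Gfp iPGCs and 5157 and 5986 in those of V6.5, 88.2 and 143 in Oct4-Gfp somatic cells and 70.1 and 182 in those of V6.5, and 5726 and 4987 in ESCs. The somatic arrays of both lines overlapped, and every iPGC array lay far above them. Its difference was 5.51 ± 0.26 (SE, adjusted p = 1.52e-06). *Utf1* (1416899_at) had 1777 and 1689 in Oct4-Gfp iPGCs and 2071 and 2257 in those of V6.5, 57.6 and 30.3 in Oct4-Gfp somatic cells and 17.0 and 29.9 in those of V6.5, and 3258 and 3271 in ESCs. All somatic arrays were far below the iPGC arrays, and V6.5 somatic replicate 1 was barely above its background level of 16.9. The difference of *Utf1* was 5.39 ± 0.17 (SE, adjusted p = 3.09e-07). Its second probe set, 1443786_at, gave 2.89 ± 0.12 (SE, adjusted p = 8.79e-07), with 388 and 446 in Oct4-Gfp iPGCs and 594 and 606 in those of V6.5, 55.0 and 47.0 in Oct4-Gfp somatic cells and 70.0 and 48.5 in those of V6.5, and 959 and 898 in ESCs, and another, 1458333_x_at, was below background on all 10 arrays and was not tested.

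The signal left in somatic cells was a small share of that in iPGCs by the main probe sets of the 5 factors. In Oct4-Gfp and V6.5 somatic cells *Sox2* was at 6.30% and 2.75% of the iPGC mean of the same line, *Nanog* at 4.59% and 2.27%, *Pou5f1* at 3.16% and 1.11%, *Utf1* at 2.53% and 1.08%, and *Zfp42* at 1.87% and 2.26%. The second *Utf1* probe set gave 12.2% and 9.88%, well above the main one. For *Sox2*, *Nanog*, *Utf1* and *Sall4* both Oct4-Gfp somatic arrays were above both V6.5 somatic arrays, as for 26.3% of all probe sets. For the first 3 of these the log2 differences between the lines were 1.23 ± 0.41 (SE, adjusted p = 0.302), 1.03 ± 0.30 (SE, adjusted p = 0.259) and 0.60 ± 0.24 (SE, adjusted p = 0.376). None of the 7 genes passed in this comparison (3 at an unadjusted p under 0.05), in which 0.0834% of all tested probe sets passed. The summed signal of the PGC markers was also higher in Oct4-Gfp somatic cells (2226 and 2278) than in V6.5 somatic cells (1487 and 1556). Most of these sums was *Tfap2c*, with means of 1851 and 1142. The means of *Kit*, *Prdm1* and *Prdm14* were also higher in Oct4-Gfp somatic cells, and those of *Dppa3*, *Dazl* and *Dnd1* were lower. Markers of other cell types differed too. In Oct4-Gfp and V6.5 somatic cells the means were 361 and 3153 for *Hbb-y*, 301 and 1160 for *Postn*, and 432 and 1786 for *Col3a1*. These 3 passed as lower in Oct4-Gfp somatic cells, and no marker gene of any cell type passed as higher. The part of all these markers in the line differences was not tested. A second *Utf1* probe set did not share the direction of the main one between the lines (-0.16 ± 0.17).

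**Figure D2:**
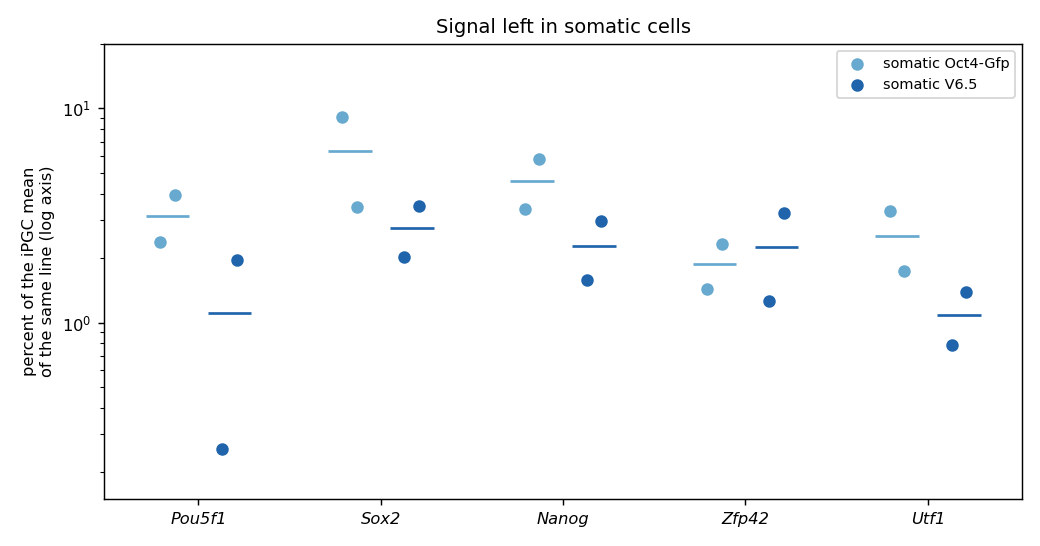
Signal of the main probe sets of 5 factors in somatic cells as a percentage of the mean iPGC signal of the same line (log axis), with points for the 2 arrays of each line and bars for their mean. *Sox2* has a mean of 6.30% in the Oct4-Gfp line, from arrays at 9.12% and 3.47%, and 2.75% in the V6.5 line, and the points of both lines overlap for *Zfp42*.

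*Sall4* was bright in somatic cells too. Its main probe set, 1424152_at, had signals of 10264 and 9423 in Oct4-Gfp iPGCs and 8776 and 8991 in those of V6.5, 8125 and 8821 in Oct4-Gfp somatic cells and 7132 and 7494 in those of V6.5, and 6906 and 6726 in ESCs. Each line had higher iPGC arrays than somatic arrays, but over both lines the groups overlapped, since Oct4-Gfp somatic replicate 2 was above V6.5 iPGC replicate 1. The difference over somatic cells was 0.25 ± 0.09 (SE, adjusted p = 0.0386), and within the lines it was 0.22 ± 0.12 (SE, adjusted p = 0.184) for Oct4-Gfp and 0.28 ± 0.12 (SE, adjusted p = 0.0989) for V6.5. This small difference lost its call without any one array other than Oct4-Gfp somatic replicate 2 (adjusted p up to 0.114) and with quantile normalization (adjusted p = 0.0994). The second probe set, 1424153_s_at, passed over both lines (0.36 ± 0.13 SE, adjusted p = 0.0397) and in V6.5 (0.66 ± 0.18 SE, adjusted p = 0.0174) but was near 0 in the Oct4-Gfp line (0.05 ± 0.18 SE, adjusted p = 0.826). Its signals were 1786 and 1645 in Oct4-Gfp iPGCs and 2395 and 2652 in those of V6.5, 1689 and 1614 in Oct4-Gfp somatic cells and 1410.3 and 1799 in those of V6.5, and 2166 and 1674 in ESCs.

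*Lin28a* was the one tested factor that was lower in iPGCs than in somatic cells. Its main probe set, 1421749_at, had 4499 and 4578 in Oct4-Gfp iPGCs and 5097 and 5577 in those of V6.5, 6204 and 5849 in Oct4-Gfp somatic cells and 5704 and 6068 in those of V6.5, and 6397 and 6699 in ESCs. Every iPGC array was below every somatic array, and those were below both ESC arrays. The difference over somatic cells was -0.27 ± 0.09 (SE, adjusted p = 0.0259), with -0.41 ± 0.12 (SE, adjusted p = 0.0268) in the Oct4-Gfp line and -0.14 ± 0.12 (SE, adjusted p = 0.385) in the V6.5 line. The second probe set, 1437752_at, gave a larger difference, -0.50 ± 0.11 (SE, adjusted p = 0.00484), with 2392 and 2073 in Oct4-Gfp iPGCs and 2749.6 and 2718 in those of V6.5, 4059 and 3159.8 in Oct4-Gfp somatic cells and 3505 and 3318 in those of V6.5, and 4346 and 4340.4 in ESCs. With arrays centred on their medians, which moved the median difference of all probe sets by 0.18, the value was -0.09 (adjusted p = 0.403), and it lost its call without any one of 6 arrays, namely both Oct4-Gfp iPGC, both V6.5 somatic, V6.5 iPGC replicate 1 and Oct4-Gfp somatic replicate 1 (adjusted p up to 0.0857). *Lin28b* (1430803_at) was dim everywhere, with 30.6 and 27.2 in Oct4-Gfp iPGCs and 28.2 and 29.8 in those of V6.5, 30.3 and 39.8 in Oct4-Gfp somatic cells and 21.9 and 16.2 in those of V6.5, and 51.7 and 33.8 in ESCs, and was not tested. It was above background on each iPGC, Oct4-Gfp somatic and ESC array, and on 1 of 2 V6.5 somatic arrays.

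Against ESCs, the factors of iPGCs did not move together. *Nanog*, *Zfp42* and *Sox2* had iPGC signals of 94.5% to 138% of the ESC mean, *Sall4* was 1.37-fold higher, and *Utf1* and *Lin28a* were 1.68-fold and 1.33-fold lower. Thus 3 of 7 tested genes passed, 1 higher and 2 lower, where 41.8% of all tested probe sets passed, 21.2% higher and 20.7% lower, so the share among the factors was near the background. None of the 3 calls held in every setting: none passed without ESC replicate 1 or without ESC replicate 2, with the V6.5 arrays alone, or with the *Gapdh* ratio as a covariate. That ratio was higher on all iPGC arrays than on both ESC arrays, and in that fit 502 probe sets passed in place of 11032. Feeder fibroblast markers, which the ESC cultures could carry, summed to 403 to 682 on iPGC arrays and 855 to 982 on ESC arrays (8 genes). Of the 6 tested, *Lox*, *Thy1*, *Col3a1* and *Col1a2* were lower and *Col1a1* higher in iPGCs, and their part in these differences was not tested.

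*Pou5f1* was below both ESC arrays on all 4 iPGC arrays, at 50.3% and 40.9% of the ESC mean in the Oct4-Gfp line and 56.9% and 64.7% in the V6.5 line. The difference was -0.92 ± 0.44 (SE, adjusted p = 0.131), which did not pass. Its error came from all 5 groups, including the V6.5 somatic pair with signals of 9.19 and 70.7. Without V6.5 somatic replicate 1, or without replicate 2, the same difference had an SE of 0.21. With only the iPGC and ESC arrays it had an SE of 0.16 (adjusted p = 0.00973). *Pou5f1* did not pass with the V6.5 arrays alone or with the *Gapdh* ratio as a covariate. With *Utf1* and *Lin28a* it was 1 of 3 genes below ESCs on every iPGC array, and *Sall4* and *Sox2* were above ESCs on every one. Of all tested probe sets, 26.4% were below and 27.9% above without overlap.

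*Utf1* was at 54.4% and 51.7% of the ESC mean on Oct4-Gfp iPGC arrays and 63.4% and 69.1% on V6.5 iPGC arrays. The difference was -0.75 ± 0.21 (SE, adjusted p = 0.0228), and the second probe set gave -0.87 ± 0.15 (SE, adjusted p = 0.00298). With the *Gapdh* ratio as a covariate the value for the main probe set was -0.18 (adjusted p = 0.806). *Lin28a* was at 68.7% and 69.9% in the Oct4-Gfp line and 77.8% and 85.2% in the V6.5 line, a difference of -0.41 ± 0.11 (SE, adjusted p = 0.0169), and its second probe set again gave a larger one, -0.81 ± 0.13 (SE, adjusted p = 0.00274). The covariate left the main value at -0.39 (adjusted p = 0.346).

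*Sall4* was at 151% and 138% of the ESC mean on Oct4-Gfp iPGC arrays and 129% and 132% on V6.5 iPGC arrays, a difference of 0.45 ± 0.11 (SE, adjusted p = 0.0114). With the covariate the value was 0.44 (adjusted p = 0.297). The second probe set of *Sall4* did not pass (0.13 ± 0.15 SE, adjusted p = 0.541), with 0.40 ± 0.18 (SE, adjusted p = 0.128) in the V6.5 line and -0.15 ± 0.18 (SE, adjusted p = 0.526) in the Oct4-Gfp line. For *Nanog*, *Zfp42* and *Sox2* the differences were -0.01 ± 0.26, 0.13 ± 0.32 and 0.21 ± 0.35 (SE), with 95% intervals of -0.61 to 0.59, -0.61 to 0.87 and -0.60 to 1.02. *Sox2* signals were higher on every iPGC array than on both ESC arrays, while *Nanog* and *Zfp42* overlapped.

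**Figure D3:**
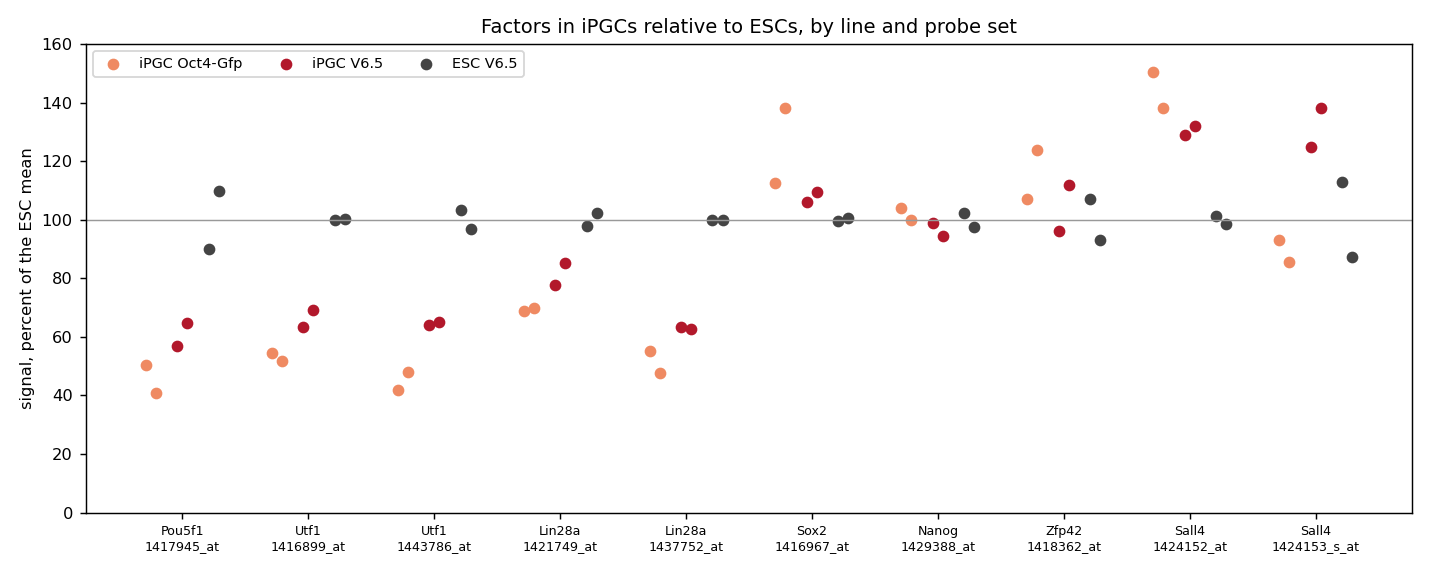
Signal of the 10 tested probe sets in iPGCs of the Oct4-Gfp and V6.5 lines and in ESCs, as a percentage of the ESC mean, with 1 point per array and a line at 100%. *Pou5f1*, *Utf1* and *Lin28a* lie below the ESC arrays on all 4 iPGC arrays, and the first *Sall4* probe set lies above them.

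The 3 calls were also made for Oct4-Gfp iPGCs set against the V6.5 ESCs, a comparison that mixes the lines. *Sall4* (0.53 ± 0.12 SE, adjusted p = 0.011), *Utf1* (-0.91 ± 0.24 SE, adjusted p = 0.0189) and *Lin28a* (-0.53 ± 0.12 SE, adjusted p = 0.011) passed in Oct4-Gfp iPGCs against ESCs, 1 higher and 2 lower, where 19.7% of all tested probe sets passed as higher and 22.7% as lower. None of these 3 calls held without ESC replicate 2 or without Oct4-Gfp iPGC replicate 1. For V6.5 iPGCs against the ESCs of that line, none of the 7 passed (3 at an unadjusted p under 0.05, and 2 called by limma-trend), with 27.2% of all probe sets passing. The V6.5 values were 0.38 ± 0.12 (SE, adjusted p = 0.0528) for *Sall4*, -0.59 ± 0.24 (SE, adjusted p = 0.105) for *Utf1* and -0.30 ± 0.12 (SE, adjusted p = 0.11) for *Lin28a*, of the same sign as for Oct4-Gfp iPGCs. The second probe sets of *Lin28a* (-0.66 ± 0.16 SE, adjusted p = 0.0179) and *Utf1* (-0.62 ± 0.17 SE, adjusted p = 0.0313) passed there. The *Gapdh* ratio, at 2.02 and 2.37 for iPGCs of the Oct4-Gfp line and 1.51 and 1.63 for those of the V6.5 line, also differed, and line, sort marker and genetic background cannot be told apart.

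Between the lines, no probe set of 26368 passed in Oct4-Gfp iPGCs against V6.5 iPGCs (0% of all; 5526 at an unadjusted p under 0.05, none of them a main probe set of the factors). The values were -0.42 ± 0.51 for *Pou5f1*, -0.32 ± 0.24 for *Utf1*, -0.23 ± 0.12 for *Lin28a* and 0.21 ± 0.41 for *Sox2* (SE), and the 95% interval for *Pou5f1*, -1.60 to 0.77, is wide. The interaction of line with population (the Oct4-Gfp difference of iPGCs over somatic cells minus the V6.5 one) was -1.53 ± 0.72 (SE, adjusted p = 0.496) for *Pou5f1*, -1.02 ± 0.57 (SE, adjusted p = 0.548) for *Sox2*, -0.95 ± 0.43 (SE, adjusted p = 0.483) for *Nanog* and -0.92 ± 0.34 (SE, adjusted p = 0.441) for *Utf1*. None of the 7 genes passed (1 at an unadjusted p under 0.05, *Utf1*), with 0.0152% of all probe sets passing. Within each line the 5 factors were higher than in somatic cells, where 19.4% (Oct4-Gfp) and 22.2% (V6.5) of all probe sets passed as higher, and *Lin28a* passed as lower in the Oct4-Gfp line, with 27.6% of all probe sets. That call was lost without any one of the 4 arrays compared (adjusted p of 0.0518 to 0.108), with only those arrays in the fit (0.0911), with the *Gapdh* covariate (adjusted p = 0.140), with no filter (0.0666) and with median centring (-0.15, adjusted p = 0.372).

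In somatic cells against ESCs the same 5 factors were lower. *Pou5f1* (-6.47 ± 0.44 SE, adjusted p = 1.12e-05), *Utf1* (-6.14 ± 0.21 SE, adjusted p = 6.24e-07), *Zfp42* (-5.38 ± 0.32 SE, adjusted p = 5.57e-06), *Nanog* (-4.91 ± 0.26 SE, adjusted p = 3.28e-06) and *Sox2* (-4.38 ± 0.35 SE, adjusted p = 2.41e-05) were the 5 of 7 tested genes that passed, where 63.3% of all probe sets passed, 29.7% as lower. *Lin28a* (-0.14 ± 0.11 SE, adjusted p = 0.29) and *Sall4* (0.21 ± 0.11 SE, adjusted p = 0.124) did not pass, and their 95% intervals were -0.38 to 0.11 and -0.04 to 0.45. The somatic arrays served in both comparisons with the 5 factors, so these values share samples with those of iPGCs over somatic cells.

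**Figure D4:**
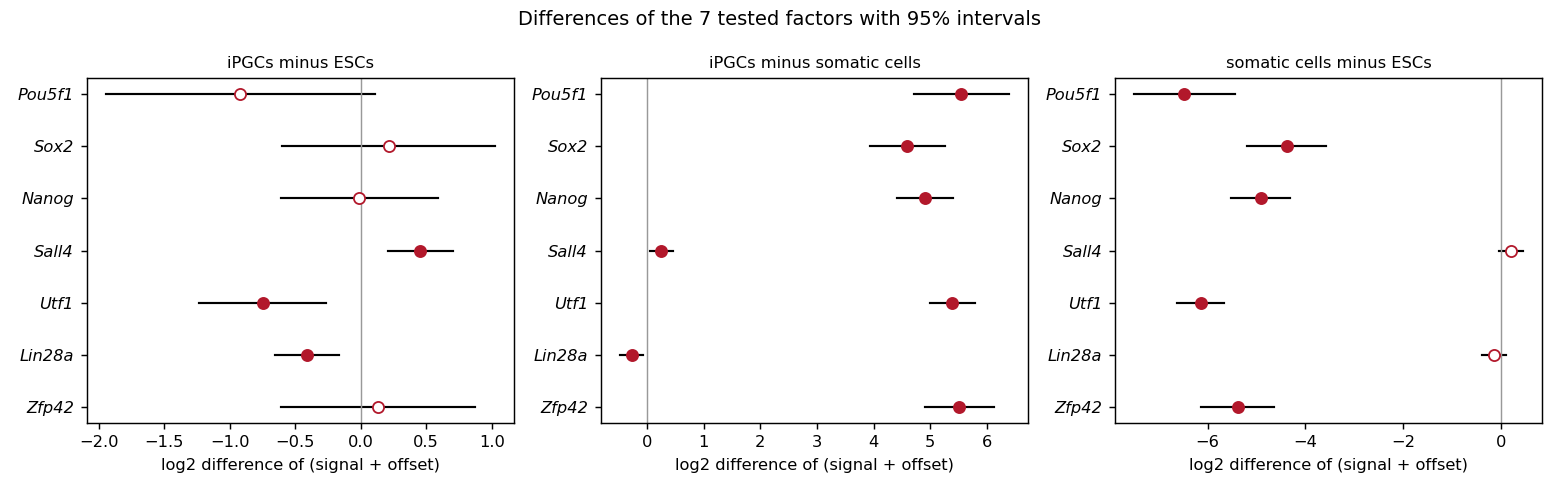
Log2 difference of (signal + 14.8) for the 7 tested factors in iPGCs minus ESCs, iPGCs minus somatic cells and somatic cells minus ESCs, with 95% intervals from limma and filled points where the adjusted p is under 0.05. Against ESCs the points lie between -0.92 and 0.45, and against somatic cells 5 of them lie between 4.59 and 5.55.

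Ordered by group mean, ESCs came first for *Pou5f1* and *Utf1*, followed by V6.5 and then Oct4-Gfp iPGCs, and for *Sox2*, *Zfp42* and *Nanog* Oct4-Gfp iPGCs came first. Among the iPGC and ESC groups of these 5 genes no neighbouring pair in the order passed the test by the main probe set, and neither did the somatic lines. Of these pairs, *Utf1* in V6.5 iPGCs against ESCs had a 95% interval without 0 (-1.15 to -0.03), and its second probe set passed there. Between the somatic lines the intervals of *Nanog* (0.33 to 1.72), *Sox2* (0.29 to 2.17) and *Utf1* (0.04 to 1.16) also left out 0. For *Sall4* the order was Oct4-Gfp iPGCs, V6.5 iPGCs, Oct4-Gfp somatic cells, V6.5 somatic cells and ESCs, and for *Lin28a* it was ESCs, Oct4-Gfp somatic cells, V6.5 somatic cells, V6.5 iPGCs and Oct4-Gfp iPGCs. In both genes no difference between the lines of a population passed the test. Across the 10 arrays, which share group structure, log2 signals of the 5 factors correlated with each other at Pearson's r of 0.965 to 0.990, and *Sall4* and *Lin28a* ran opposite to each other (r = -0.855).

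The genes whose log2 signals over the 10 arrays were most like those of a factor were sought among 12200 genes. They were *Dppa5a*, *Wdr31* and *Trh* (r = 0.997, 0.996, 0.995) for *Pou5f1*, *Etv5*, *Nlrp14* and *Syt9* (r = 0.993, 0.992, 0.992) for *Sox2*, and *Prr23a3*, *L1td1* and *Sh3gl2* (r = 0.999, 0.998, 0.996) for *Nanog*. For *Zfp42* they were *Morc1*, *2500002B13Rik* and *Crb3* (r = 0.997, 0.996, 0.996), and for *Utf1* *Folr1*, *Ap1m2* and *Fabp3* (r = 0.997, 0.997, 0.996). *Sall4*, whose range over arrays was small, was most like *Ttll5*, *Esf1* and *Kif20a* (r = 0.977, 0.971, 0.971), and *Lin28a* most like *Ethe1*, *Rab8a* and *Ehbp1l1* (r = 0.981, 0.967, 0.965).

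Genes that OCT4, SOX2 and NANOG bind or drive in ESCs were high in iPGCs. Of 20 listed, 18 were tested, and against somatic cells 17 rose and none fell, where 26.9% of all probe sets were higher and 31.4% lower, with a median log2 difference of 4.57 against -0.03 over all probe sets. The largest were *Dppa2*, a DNA-binding protein of pluripotent cells, with 5400.1 ± 672 in iPGCs and 74.2 ± 39.2 in somatic cells (mean ± SD, n = 4 each), a difference of 6.08 ± 0.32 (SE, adjusted p = 2.56e-06). *Esrrb*, an orphan nuclear receptor, gave 6.04 ± 0.20 (SE, adjusted p = 3.26e-07), and *Fbxo15*, an F-box gene used as an ESC reporter, gave 5.99 ± 0.17 (SE, adjusted p = 2.04e-07). *Tcl1*, a coactivator of AKT, was below background on every somatic array and at least 66.6-fold higher in iPGCs (1359 ± 129 in iPGCs, 7.92 ± 5.44 in somatic cells, adjusted p = 2.30e-07). *Zfp281* was the tested gene that did not pass (0.21 ± 0.09 SE, adjusted p = 0.0654).

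Against ESCs 3 of the 18 were higher and 6 lower, where 21.2% of all probe sets were higher and 20.7% lower, and the median was -0.39 (0.02 over all probe sets). *Zfp281* (0.67), *Dppa4* (0.55) and *Jarid2* (0.52), a partner of Polycomb complex PRC2, were higher in iPGCs. All 3 passed for Oct4-Gfp iPGCs against the V6.5 ESCs, but only *Zfp281* for V6.5 iPGCs. *Lefty1*, an inhibitor of Nodal, fell most (-3.62 ± 0.34 SE, adjusted p = 0.000347), followed by *Nr0b1* (-1.20), *Klf4* (-0.96), *Gdf3* (-0.95), *Mybl2* (-0.81) and *Fgf4* (-0.72), a growth factor under an OCT4 and SOX2 enhancer. All 6 passed for V6.5 iPGCs, and only *Lefty1*, *Mybl2* and *Gdf3* for Oct4-Gfp iPGCs. With one or another array left out, 1 to 4 genes were called higher and 3 to 7 lower.

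The 11 subunits of NuRD, the complex that SALL4 and NANOG recruit, were all tested. Against somatic cells 2 rose and 2 fell, a smaller share than the 58.4% of all probe sets that passed (median -0.06, and -0.03 over all probe sets). *Mta3* was higher (1.05 ± 0.08 SE, adjusted p = 1.69e-05, with 1885 ± 197 in iPGCs and 901 ± 18.7 in somatic cells), as was the deacetylase *Hdac1* (0.44 ± 0.09 SE, adjusted p = 0.00297). *Chd4*, the ATPase of the complex, was lower (-0.37 ± 0.11 SE, adjusted p = 0.0191), and so was *Mta1* (-0.38 ± 0.14 SE, adjusted p = 0.0434), both with overlapping arrays and *Chd4* in 2 of its 3 probe sets. The number called lower was 0 to 2 with single arrays left out and 2 in 1 of these 10 fits alone. By line, *Chd4* and *Mta1* passed as lower than in somatic cells in the Oct4-Gfp line only. With V6.5 arrays only their values were -0.14 (adjusted p = 0.461) and -0.14 (adjusted p = 0.442). Against ESCs *Chd4* (-1.07 ± 0.13 SE, adjusted p = 0.000856), *Mbd3* (-0.81 ± 0.12 SE, adjusted p = 0.00191) and *Mta1* (-0.72 ± 0.17 SE, adjusted p = 0.0113) were lower in iPGCs and none was higher (median -0.14), where 20.7% of all probe sets were lower. With the *Gapdh* ratio as a covariate none of these 3 passed (adjusted p = 0.139 for *Chd4*, 0.0836 for *Mbd3* and 0.762 for *Mta1*, whose value was -0.15). *Mta1* also lost its call with V6.5 arrays only (-0.40, adjusted p = 0.0795) and without ESC replicate 2 (adjusted p = 0.0859).

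For LIN28 the array data cover genes of the let-7 axis, and the microRNAs themselves were not analysed here. LIN28 proteins grip a GGAG in the 3′ part of the let-7 precursor and let it be marked for decay. Of 11 let-7 hairpins of the mouse (RefSeq, GRCm38.p6), 9 have GGAG after the 5′ arm and 2 (let-7b and let-7c-2) do not. All 10 hairpins with an annotated 5′ product share its seed GAGGUAG (bases 2 to 8). Shown, with GGAG in capitals, are a hairpin that has the motif and one that lacks it, and then the mature let-7g with its seed in capitals.
let-7g hairpin: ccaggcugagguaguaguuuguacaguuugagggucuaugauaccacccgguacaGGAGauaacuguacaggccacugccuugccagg
let-7b hairpin: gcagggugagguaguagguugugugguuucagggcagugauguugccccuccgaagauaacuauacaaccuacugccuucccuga
let-7g-5p: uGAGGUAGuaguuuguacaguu

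Of 18 genes of the axis 15 were tested, and against somatic cells 3 rose and 9 fell in iPGCs, where 26.9% of all probe sets were higher and 31.4% lower (median -0.49). The chromatin protein *Hmga2*, a classic let-7 target, was at 366 ± 126 in iPGCs, 5913 ± 577 in somatic cells and 96.5 ± 13.6 in ESCs (mean ± SD, n = 4, 4 and 2). It was -4.02 ± 0.15 (SE, adjusted p = 6.35e-07) against somatic cells and 1.72 ± 0.19 (SE, adjusted p = 0.00059) against ESCs, and its iPGC arrays lay between the other populations. *Myc* was lower than in somatic cells (-3.08 ± 0.14 SE, adjusted p = 1.27e-06) and than in ESCs (-0.85 ± 0.17 SE, adjusted p = 0.0063), as were the cyclin *Ccnd1* (-1.15 ± 0.11 SE, adjusted p = 5.88e-05 and -0.44) and *Dis3l2* (-0.62 ± 0.15 SE, adjusted p = 0.0078 and -1.34), the nuclease that degrades the uridylated let-7 precursor. *Mycn* (0.66 ± 0.09 SE, adjusted p = 0.00048), *Dicer1* (0.53) and *Cdc25a* (0.32) were higher than in somatic cells. By line, 1 gene rose and 5 fell against somatic cells in V6.5, and 3 rose and 8 fell in Oct4-Gfp. The rises of *Dicer1* and *Cdc25a* and the fall of *Dis3l2* against somatic cells passed in the Oct4-Gfp line only. The fall of *Ccnd1* against ESCs passed for V6.5 iPGCs only. Against ESCs 3 rose and 5 fell (median 0.03), where 41.8% of all probe sets passed.

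Of 18 SOX, POU, SALL and YY1 relatives 15 were tested, and against somatic cells 3 rose and 7 fell in iPGCs (median -0.82), against 26.9% higher and 31.4% lower over all probe sets. *Sox9*, of cartilage and gonad, averaged 13.3 ± 10.3 in iPGCs (above background on 2 of 4 arrays) and 279.7 ± 22.1 in somatic cells (-3.46 ± 0.25 SE, adjusted p = 1.21e-05), and *Sox11*, of neural and mesenchymal progenitors, 378 ± 164 in iPGCs and 3709 ± 966 in somatic cells (-3.30 ± 0.21 SE, adjusted p = 5.37e-06). *Sox15*, a close relative of SOX2 that is active in ESCs, was higher, with 319 ± 50.2 in iPGCs and 36.0 ± 3.62 in somatic cells (2.71 ± 0.10 SE, adjusted p = 5.73e-07). *Sox21*, a repressor known as a SOX2 target, was higher than in somatic cells (2.36 ± 0.13 SE, adjusted p = 2.59e-06) and than in ESCs (0.81 ± 0.15 SE, adjusted p = 0.00488), and *Sox1* was higher than in somatic cells (1.08) but lower than in ESCs (-1.82). By line, *Sox21* passed over ESCs for Oct4-Gfp iPGCs only. *Sox1* passed over somatic cells in the V6.5 line only, with iPGC means of 79.2 in V6.5 and 15.8, near background, in Oct4-Gfp. *Sall2* (-1.77) and *Sall3* (-1.53) were lower than in somatic cells. Against ESCs 2 rose and 3 fell (median 0.31), a smaller share than the 41.8% of all probe sets, and leaving out single arrays gave 0 to 3 higher and 1 to 5 lower.

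**Figure D5:**
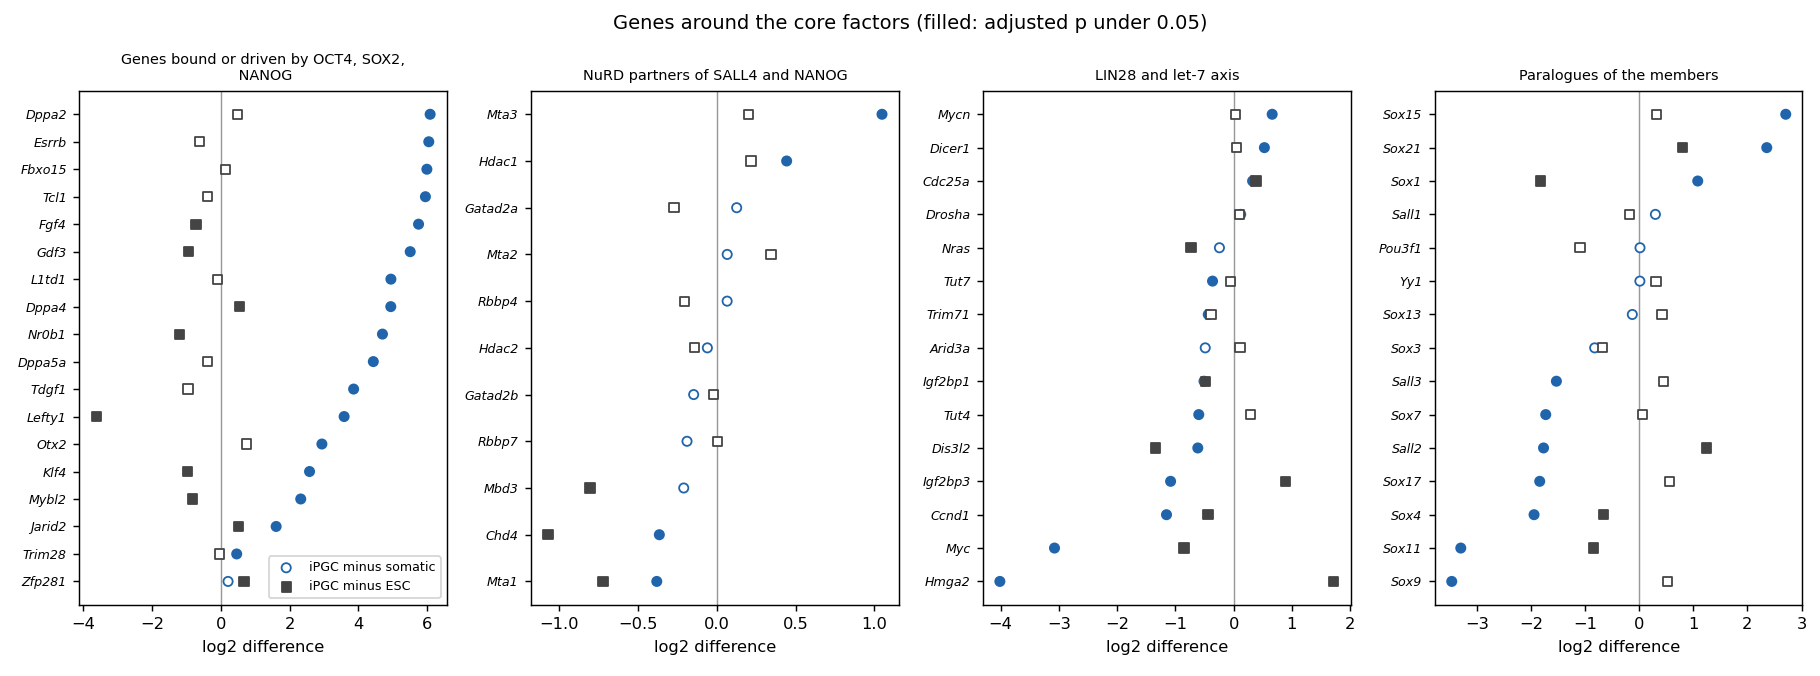
Log2 differences of iPGCs minus somatic cells (circles) and iPGCs minus ESCs (squares) for the tested genes of 4 lists around the core factors, with filled symbols where the adjusted p is under 0.05. Targets of OCT4, SOX2 and NANOG lie to the right against somatic cells (median 4.57), and among the genes to the left in that comparison are *Hmga2* (-4.02), *Sox9* (-3.46) and *Sox11* (-3.30).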

How the data were processed

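RNA of the 10 sorted samples was amplified by whole transcriptome amplification and hybridised to 1-colour arrays. The authors deposited 1 intensity per probe set and array on a linear scale. The submitters' processing notes name MAS5, whose signals had a trimmed mean of 500 on every array (2% cut at each end). The methods of the study name another summary, D-Chip, which was not used here. The 64 control probe sets were left out, 14.8 (the 25th percentile of all signals) was added before taking log2, and 26368 of 45101 probe sets that exceeded the array median on at least 2 arrays were tested. One linear model held all 5 groups (limma 3.58.1, R 4.3.3, with 5 residual and 2.92 prior degrees of freedom). The Benjamini-Hochberg adjustment ran over every tested probe set. Arrays hold no counts, so their number limits the precision.

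The probe set with the highest mean signal stood for a gene that has several. Annotation gave 1 symbol to 34958 probe sets, several to 932 and none to 9211. Genes were named by rule: all 8 members, up to 4 genes of each list with the largest differences among those that passed, and the 3 genes most correlated with each member. Other list genes were named after their values were seen. The 8 members and the lists were chosen with earlier results of these data known. A fold of at least a given size sets the brighter mean against the background level. The fitting steps were tested on simulated data. Alternatives were a doubled offset, a floor, no filter, a stricter filter, quantile normalization, median centring, only the arrays compared, V6.5 arrays only, limma-trend, no moderation, array quality weights, the replicate number as a block, the *Gapdh* ratio as a covariate, the second probe set, and each array left out in turn.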

Additional observations from a re-analysis of the deposited data

How the results depend on the processing

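The calls of *Pou5f1*, *Sox2*, *Nanog*, *Zfp42* and *Utf1* in iPGCs against somatic cells, and in somatic cells against ESCs, held in all 24 settings. The count of members called in iPGCs against ESCs (3) was 0 with the V6.5 arrays only, 0 with the *Gapdh* ratio as a covariate, and 0 to 4 with single arrays left out. For Oct4-Gfp iPGCs (3) it was 0 with the covariate and 0 to 4 with single arrays left out. For V6.5 iPGCs (0) it was 1 with the offset doubled, the stricter filter or quantile normalization, and 2 with limma-trend, no moderation or the second probe set. Some differences changed sign, and the cause was not tested. With quantile normalization *Nanog* was 0.16 in iPGCs against ESCs and 0.11 in V6.5 iPGCs, and *Lin28a* was 0.079 in somatic cells against ESCs. With median centring *Zfp42* was -0.027 in V6.5 iPGCs against ESCs and the interaction of *Sall4* with line was 0.093. With the covariate *Nanog* was -0.80 in Oct4-Gfp iPGCs against ESCs and -0.50 against V6.5 iPGCs. *Zfp42* was then -0.56, -0.27 and -0.86 in all, V6.5 and Oct4-Gfp iPGCs against ESCs, -0.59 between iPGC lines and -0.45 in the interaction, and *Utf1* was 0.29 between iPGC lines. *Mta1* was 0.14 in somatic cells against ESCs, and *Sox11* and *Tcl1* were 0.16 and 0.085 in iPGCs against ESCs. With second probe sets *Sall4* was -0.23 in somatic cells against ESCs, -0.15 in Oct4-Gfp iPGCs against ESCs and -0.55 between iPGC lines, and *Utf1* was -0.16 between somatic lines. Without single arrays *Nanog* ranged from -0.044 to 0.023 in iPGCs and from -0.0053 to 0.062 in Oct4-Gfp iPGCs against ESCs, and *Lin28a* from -0.010 to 0.079 between somatic lines. *Zfp42* ranged from -0.051 to 0.16 in V6.5 iPGCs against ESCs, from -0.62 to 0.59 between somatic lines and from -0.44 to 0.77 in the interaction.

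Over all probe sets, the share of calls that were higher was 46.1% in iPGCs against somatic cells and 59.3% after median centring, and 41.2% and 59.8% in the Oct4-Gfp line (53.1% with quantile normalization). It was 53.0% in somatic cells against ESCs and 43.0% after centring, and 57.1% and 46.0% in V6.5 iPGCs against ESCs. The count of calls in iPGCs against ESCs, 11032, was 6093 with V6.5 arrays only, and 7041 and 5521 without ESC replicate 1 and 2. Titles number the replicates. Deviations of replicate 1 from the group mean correlated between groups at r of -0.292 to 0.262 over 10 pairs of groups. With 2 arrays per group these values cannot exclude pairing. With the replicate number as a block *Sall4* lost its call against somatic cells (adjusted p = 0.0561), as did *Mta1*.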
